A study of Mus musculus with 15 samples.

Results

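To set the change from flat to three-dimensional culture beside the difference between the outer and the inner part of the spheroids, each gene measured in both experiments was described by a pair of differences. These were the mean of the 3D samples minus the mean of the 2D samples, and the mean of the internal samples minus the mean of the external samples, both in log2 CPM, the logarithm of the read count scaled to library size. The tables shared 11041 gene symbols, and for 8841 of these the higher group averaged 3 log2 CPM or more in both tables. Among these, 625 genes were placed in 8 classes. A gene beyond 1 in both differences, that is more than doubled or less than halved on a linear scale, was placed by its pair of signs. A gene beyond 1 in one difference was placed only if the other lay within 0.25 of 0. The classes were thus chosen on the differences themselves, so that the values of their members are a description and no test was made on them.

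All samples came from 21EM15, a single mouse lens epithelial cell line, labelled WT in all groups, and the labels give no drug or genetic change. The 4 2D samples were subconfluent monolayers, each from a culture dish. The 4 3D samples were pools of spheroids grown without attachment in round wells coated with Polyhema. By the study's methods, spheroids were cultured for longer than dishes usually needed to reach the density at which they were sampled. Time in culture and 3D growth therefore cannot be told apart in the culture differences. The 4 internal and 3 external samples were regions cut by laser from frozen sections of pooled spheroids, so that the intermediate zone between them was in neither group. RNA of the 2D and 3D samples was extracted with a Nucleospin kit and RNA of the regions with an Arcturus PicoPure kit, and both sets were sequenced from the 3′ end of the mRNA. A further external sample was set aside by the study because its expression differed from that of the other 3, and it was not analysed here. The spread of the external samples is thus that of the samples kept. Neither the labels nor the methods say whether the samples of a group were grown independently, so that the errors below measure the spread between these samples. Standard errors and 95% intervals are those of limma, fitted within each table. In such bulk RNA, fewer cells of one kind and less RNA per cell cannot be told apart.

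The lens grows throughout life by turning epithelial cells into fiber cells, so that cell division is confined to its epithelium and the oldest fibers lie at its center. Crystallins, which are soluble proteins packed at high concentration, give the fibers their refractive power. The Notch ligand *Jag1* and the transcription factors *Prox1* and *Maf* act in that differentiation. Within a cell aggregate, cells at the surface and cells in the core also differ in their access to nutrients, oxygen and neighbours.

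The totals over the listed genes lay between 7305053 and 9362587 reads in the 2D, 7727642 and 8364276 in the 3D, 4256391 and 11702504 in the internal and 4044230 and 6086089 in the external samples. A count of 3 reads, taken as the smallest signal, corresponded to between 0.248 and 0.802 CPM, and such limits cover counting error only. The 2D replicate 2 lay farthest from its group mean, with a root mean square distance of 0.655 log2 CPM over the genes. The distances of the remaining 2D samples were 0.467 to 0.524. Of 11 lens epithelium markers, 7 were in both tables, *Pax6*, *Six3*, *Gja1*, *Meis1*, *Aqp1*, *Cryab* and *Epha2*, while *Foxe3*, *Sox2*, *Cdh1* and *Pitx3* were in neither. Of 26 lens fiber markers, 6 were in the culture table and 8 in the region table, and apart from *Cryab*, listed with the epithelium, no crystallin of these lists was in either table. Of 12 fibroblast markers, 10 were in the culture and 9 in the region table. They ranged from *Vim* and *S100a4*, between 11.7 and 13.1 log2 CPM on average in each group, to *Thy1*, between -1.34 and 1.84, while *Lum* and *Fap* were in neither table.

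Genes that moved the same way in both comparisons were more frequent than genes that moved in opposite ways. Of the 8841 genes, 552 were more than 1 higher in 3D (6.24%), 241 more than 1 lower in 3D (2.73%), 411 more than 1 higher in the internal region (4.65%) and 619 more than 1 lower there (7.00%). The 155 genes higher in both were 28.1% of the first and 37.7% of the third set. The 167 genes lower in both were 69.3% of the genes lower in 3D and 27.0% of those lower in the internal region. In contrast, 28 genes were higher in 3D and lower in the internal region, 5.07% and 4.52% of their sets, and 5 genes were lower in 3D and higher in the internal region. A further 89 genes were higher and 19 lower in 3D while near 0 between the regions, and 81 genes were higher and 81 lower in the internal region while near 0 between the cultures. Both differences lay within 0.25 of 0 for 1488 genes. Across the 8841 genes the 2 differences had a Pearson correlation of 0.46 and a Spearman correlation of 0.43, and without the genes lower in both a Pearson correlation of 0.40. No sample is shared between the tables, but genes are not independent replicates, and these coefficients are a description.

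**Figure D1:**
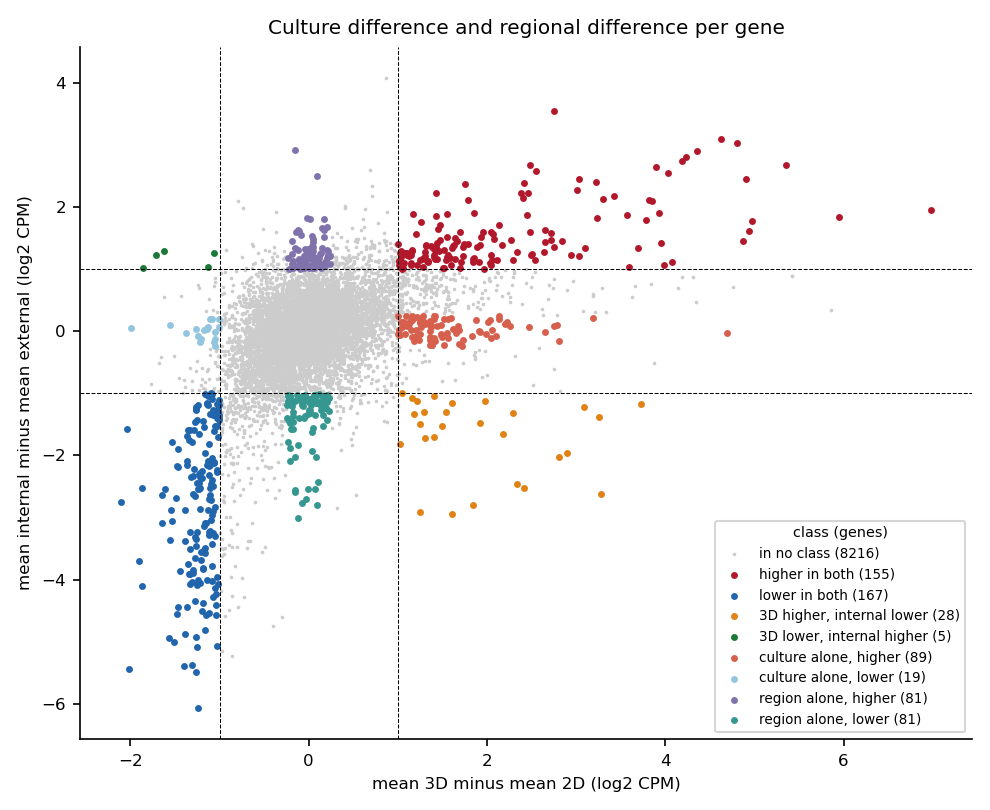
Difference between 3D and 2D (horizontal, log2 CPM) and between internal and external region (vertical, log2 CPM) for each of 8841 genes, coloured by class, with dashed lines at 1 and -1. The 155 genes higher in both fill the upper right and the 167 genes lower in both the lower left, where regional differences reach -6.06 and culture differences -2.10, while the upper left holds 5 genes.

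The 2 shared classes differed in which comparison held the larger change. Among the 155 genes higher in both, the median difference was 1.75 between the cultures and 1.35 between the regions, and the regional change was the larger one for 37 genes. Among the 167 genes lower in both, the median was -1.19 between the cultures and -2.65 between the regions, and the regional change was the larger one for 157 genes. The genes nearest the threshold of 1 were *Matn2* with 1.0041 between the regions inside and *Mrc2* with 0.99 outside the class of higher genes. For the lower genes they were *Shmt1*, with -1.0008 between the cultures, and *Hirip3*, with -0.99996. *Ly6c1* (-1.003 between the regions) lay inside and *S100a16* (0.9995 between the cultures) outside the class higher in 3D and lower in the internal region, and *Ppm1e* (1.01 between the regions) and *Crybg3* (0.94) were so placed for the opposite class. The corresponding pairs were *Csad* and *Idnk* (1.01 and 0.9965) for 3D alone higher and *Patl1* and *Pradc1* (-1.0043 and -0.9994) for 3D alone lower. For the internal region alone they were *Pitpnm2* and *Jade1* (1 and 0.9978) among the higher and *Fbxo45* and *Capg* (-1.01 and -0.9975) among the lower genes.

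The median over a class was then followed through the samples, relative to the mean of the 2D samples or of the external samples. For the genes higher in both it was 1.77, 1.52, 2.03 and 1.90 in the 3D samples, and 1.37, 1.41, 1.36 and 1.37 in the internal samples. For the genes lower in both it was -1.14, -1.10, -1.39 and -1.20 in the 3D samples and between -2.72 and -2.48 in the internal samples. No sample of either pair of groups came near the other group. The rule favours such a separation, because it chose these genes by the difference between the same group means. The 2D samples were less uniform in the genes higher in 3D but lower in the internal region, with medians of 0.90, 0.83, -1.05 and -0.62, and in the genes higher in 3D alone, with 0.35, 0.70, -0.58 and -0.46. In both classes the 2D replicates 1 and 2 were nearer to the 3D samples than the 2D replicates 3 and 4.

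**Figure D2:**
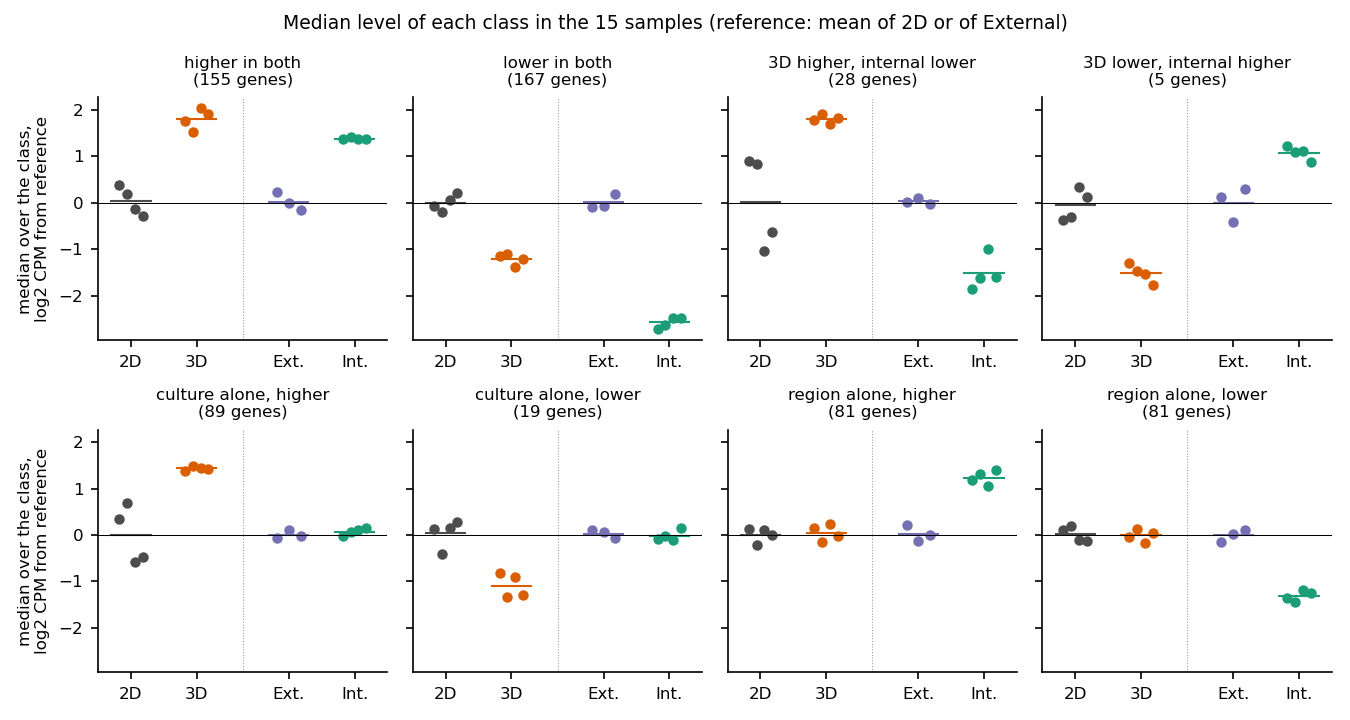
Median over the genes of each class (vertical, log2 CPM relative to the mean of the 2D samples or of the external samples) in each of the 15 samples, with group means as lines. The internal samples of the genes lower in both lie between -2.72 and -2.48, and the 2D samples spread from -1.05 to 0.90 for the 28 genes higher in 3D and lower in the internal region.

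The genes lower in both comparisons included genes of the cell cycle from 2 lists. Of a list of 38 genes of S phase and DNA replication, 34 reached the minimum mean and 14 were placed in a class, all of them lower in both. Of 40 genes of the G2 phase and mitosis, 36 reached it and 29 were placed, again all lower in both. The other genes of these lists were in no class, and most of the 167 genes are on neither list. With limma, 14 of the 37 measured S phase genes were called lower in 3D and 28 of 36 lower in the internal region, at an adjusted p under 0.01 and a difference beyond 1. For the G2/M list these were 25 and 38 of 40 genes, and no gene of either list was called higher. Over all genes of a table, 1.51% were called lower in 3D and 4.35% lower in the internal region. The median difference between the cultures was -1.08 for the S phase and -1.24 for the G2/M list, and between the regions -2.13 and -3.72, against -0.03 and 0.04 over all genes of the tables. Without the 3D replicate 3, the calls between the cultures fell to 5 for the S phase and 11 for the G2/M list. A fit without the variance trend called 9 S phase genes between the cultures and 14 between the regions.

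In G2/M genes, a CCAAT box bound by NF-Y and the cell cycle genes homology region (CHR), bound by the DREAM and MMB complexes, are known promoter elements, and E2F factors act on S phase genes. The promoters of the genes were therefore read from RefSeq on GRCm38.p6, from 250 bases before to 50 bases after the annotated start, for 7154 of the 8841 genes and 133 of the 167 genes lower in both. CCAAT, on either strand, was found in 78 of these 133 promoters (58.6%), against 37.4% of all 32851 promoters in the reference and 39.1% of those of the 8841 genes. It was also found in 29 of 55 promoters of the genes lower in the internal region alone (52.7%) and in 8 of 17 of those lower in 3D alone (47.1%). The CHR letters TTTGAA were found in 52 (39.1%), against 17.9% and 11.3%. Among the 24 promoters of the placed G2/M genes, 21 held CCAAT and 20 held TTTGAA, while none of the 12 promoters of the placed S phase genes held TTTGAA. The E2F letters TTTGGCGC, TTTCCCGC or TTTCGCGC were found in 4 of these 12 and in 16 of the 133 (12.0%), against 1.84% of all promoters and 4.03% of those of the 8841 genes. They were also found in 3 of 17 promoters of the genes lower in 3D alone. The motifs were searched on both strands, and a match is not a binding site. The promoters of *Ccnb1*, which encodes cyclin B1, of *Cdc20*, an activator of the anaphase-promoting complex, and of *Mcm3*, a subunit of the replicative helicase, are shown with CCAAT and TTTGAA in capitals for the first 2 and the E2F letters in capitals for *Mcm3*.
*Ccnb1*, chr13:100786437-100786736, minus strand: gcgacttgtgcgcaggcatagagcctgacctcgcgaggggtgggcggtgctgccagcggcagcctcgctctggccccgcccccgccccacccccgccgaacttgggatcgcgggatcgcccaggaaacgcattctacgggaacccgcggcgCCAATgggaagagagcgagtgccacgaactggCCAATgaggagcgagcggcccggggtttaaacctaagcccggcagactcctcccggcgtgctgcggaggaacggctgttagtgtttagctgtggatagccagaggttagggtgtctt
*Cdc20*, chr4:118437294-118437593, minus strand: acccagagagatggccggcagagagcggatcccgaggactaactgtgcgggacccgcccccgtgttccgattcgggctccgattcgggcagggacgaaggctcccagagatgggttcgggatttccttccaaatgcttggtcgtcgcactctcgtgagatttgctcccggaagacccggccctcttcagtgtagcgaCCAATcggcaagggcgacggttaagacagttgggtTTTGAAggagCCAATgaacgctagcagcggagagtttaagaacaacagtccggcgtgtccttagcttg
*Mcm3*, chr1:20820263-20820562, minus strand: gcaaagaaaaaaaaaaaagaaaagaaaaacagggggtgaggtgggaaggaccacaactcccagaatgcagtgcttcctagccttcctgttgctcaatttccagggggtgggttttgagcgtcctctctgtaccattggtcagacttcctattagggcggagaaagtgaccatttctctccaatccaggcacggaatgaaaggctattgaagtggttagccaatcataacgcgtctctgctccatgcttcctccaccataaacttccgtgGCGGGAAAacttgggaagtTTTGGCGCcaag

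In *Cdc20*, the CHR letters began at position -18 between CCAAT boxes that began at -53 and -8, counted from 1 at the annotated start. In *Ccnb1*, CCAAT began at -99 and -67 and TTTGAA was not in this window. *Cdc20* had 1814, 1152, 2270 and 3805 reads in the 2D and 691, 558, 599 and 816 in the 3D samples, and 303, 150 and 136 in the external and 6, 3, 13 and 7 in the internal samples. It differed by -1.51 (standard error 0.26) between the cultures and by -5.002 (standard error 0.57) between the regions. *Mcm3* had 7.37, 7.32, 7.55 and 7.69 log2 CPM in 2D and 6.29, 6.32, 5.88 and 6.11 in 3D. In the regions it had 6.205, 6.86 and 6.72 log2 CPM in the external and 2.82, 3.34, 3.34 and 1.24 in the internal samples. All 3D samples lay below all 2D samples and all internal below all external samples for both genes, as for 158 and 156 of the 167 genes, against 12.0% and 15.4% of all genes of the tables. The rule itself selects such genes.

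Among the placed S phase genes, the largest regional differences were those of *Ccne2*, which encodes cyclin E2, and *Tk1*, thymidine kinase. *Ccne2* had 140, 89 and 217 reads in the external samples, and 5 reads in the internal replicate 3 and 0 in the other internal samples. Its regional difference of -6.06 log2 CPM (standard error 0.77) rests on the prior count of the deposited values, since internal reads were nearly absent, while between the cultures it was -1.24 (standard error 0.22). *Tk1* fell by 5.38 on the log2 scale between the regions and by 1.30 between the cultures. *Cdk1*, the kinase that drives entry into mitosis, had 3179, 116, 3201 and 4228 reads in 2D and 1128, 164, 961 and 859 in 3D. Both replicates 2 stood far below the others, the 2D replicate 2 below all 3D samples, and its culture difference of -1.12 had a standard error of 0.996. In the regions, *Cdk1* had 258, 76 and 69 reads in the external and 10, 43, 34 and 25 in the internal samples.

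By the smaller of their 2 absolute differences, the leading genes lower in both with groups apart in each table were *Lrp2*, *Il18rap*, *E2f8*, *Ankrd33b*, *Ckap2*, *Hmmr*, *Sgo2a* and *Fgf7*. *Lrp2* (ENSMUSG00000027070, chr2:69424340-69586065) encodes the endocytic receptor megalin. It had 4.81, 4.40, 4.37 and 5.46 log2 CPM in 2D and 2.98, 2.76, 2.54 and 2.34 in 3D, a difference of -2.10 (standard error 0.27). Between the regions, the values were 2.98, 3.10 and 4.51 in the external and 1.07, 1.51, 1.61 and -1.09 in the internal samples, a difference of -2.75 (standard error 0.70). The internal replicate 4 had 2 reads and stood lowest. *E2f8*, a repressor of the E2F family, had 6.41, 4.49, 4.65 and 5.21 log2 CPM in 2D and between 2.93 and 3.504 in 3D. It had 80, 34 and 43 reads in the external and 7, 10, 2 and 0 in the internal samples, so that the regional difference of -3.70 (standard error 0.76) is limited by counting.

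*Hmmr*, *Ckap2* and *Sgo2a* encode proteins of the mitotic spindle and the centromere. *Hmmr* had 6.66, 5.28, 6.21 and 6.49 log2 CPM in 2D and 4.76, 3.71, 4.82 and 4.77 in 3D, and it differed by -3.08 (standard error 0.61) between the regions. Not all leading genes belong to the cell cycle. *Il18rap*, a subunit of the interleukin-18 receptor, had from 129 to 354 reads in 2D and from 32 to 67 in 3D. It had 147, 72 and 48 reads in the external samples, whereas the internal samples had 0, 5, 0 and 0. *Fgf7*, a growth factor for epithelial cells, had 4.999, 3.86, 4.35 and 4.56 log2 CPM in 2D against 2.15 to 3.18 in 3D, and 4.22, 3.06 and 3.46 in the external against 0.65 to 1.497 in the internal samples. *Ankrd33b* differed by -1.87 between the cultures and by -4.10 between the regions.

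Smaller groups of lower genes came from other lists. *Tuba1c* and *Tubb4b*, which encode tubulins, differed by -1.13 and -1.08 between the cultures and by -2.87 and -2.403 between the regions. *Dkc1* and *Nhp2*, both of the box H/ACA particles that modify ribosomal RNA, differed by -1.08 and -1.11 between the cultures and by -2.05 and -1.34 between the regions. The tubulin list as a whole had 2 of 11 genes called lower in 3D and 6 of 11 lower in the internal region, and the ribosome biogenesis list 3 and 6 of 31 genes, against 1.51% and 4.35% of all genes. Between the cultures, 0 tubulin genes were called without the 2D replicate 3, and 1 and 5 ribosome biogenesis genes without the 2D replicate 4 and the 3D replicate 2. Without the variance trend, 0 tubulin and 1 ribosome biogenesis genes were called between the cultures, and 2 ribosome biogenesis genes between the regions. *Ccn1*, a matricellular target of YAP, was lower in both with -1.47 and -2.19, but its regional groups overlapped. *Epha2*, an ephrin receptor, was lower in both with -1.03 (standard error 0.38, not called) and -1.32. It is on the lens epithelium list, of which 5 of 7 genes were above 0 in either table, with medians of 0.48 and 0.43. *Stard4*, a sterol carrier, was lower in both with -1.18 and -1.54.

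The leading genes among the 155 higher in both comparisons were *Rspo3*, *Slc40a1*, *Adh1*, *Pde1b*, *Mme*, *Postn*, *Apoe* and *Aldh3a1*. In the cultures 134 and in the regions 139 of the 155 genes had groups that did not overlap, against 12.0% and 13.5% of all genes of the tables that were wholly higher in 3D or in the internal region. As above, the rule selects such genes.

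*Postn* (ENSMUSG00000027750, chr3:54361109-54391037) encodes periostin, a matrix protein. It had 4.96, 5.26, 2.33 and 3.25 log2 CPM in 2D and 7.82, 7.67, 8.54 and 8.52 in 3D, and 6.92, 5.96 and 5.88 in the external and 8.84, 9.37, 8.85 and 8.90 in the internal samples. The differences were 4.19 (standard error 0.56) and 2.73 (standard error 0.20), corresponding to 18.2-fold and 6.65-fold higher levels. The wide error between the cultures came with 2D samples that ranged from 41 to 294 reads. *Slc40a1*, the iron exporter ferroportin, had 5, 2, 0 and 9 reads in 2D and 138, 49, 163 and 222 in 3D. Its regional values were 3.17, 2.47 and 2.11 log2 CPM in the external and 5.62, 6.05, 5.81 and 4.93 in the internal samples, a difference of 3.02 (standard error 0.33). *Rspo3*, a secreted enhancer of Wnt signalling, had 8 reads in the 2D replicate 1 and 0 in the other 2D samples, against 29 to 126 in 3D. Its regional difference was 3.10 (standard error 0.29), with 23 to 35 reads in the external and 213 to 619 in the internal samples.

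*Apoe*, a carrier of cholesterol, had 1.29, 2.403, 1.86 and 3.10 log2 CPM in 2D and 8.10, 6.04, 8.06 and 7.88 in 3D, and between 6.95 and 7.59 in the external and between 9.38 and 10.1 in the internal samples. The 3D replicate 2 stood below the other 3D samples and still above all 2D samples. *Mme*, the membrane peptidase neprilysin, was the one leading gene whose regional difference exceeded that of the cultures, with 3.55 (standard error 0.44) against 2.75 (standard error 0.30). Its external samples spread from 1.29 to 3.97 log2 CPM. *Adh1* and *Aldh3a1* encode alcohol and aldehyde dehydrogenases. *Aldh3a1* had 3.75, 3.89, 3.98 and 4.67 log2 CPM in 2D, 7.82, 6.69, 8.77 and 8.60 in 3D, 6.59, 6.59 and 7.34 in the external and 9.18, 9.26, 9.66 and 9.82 in the internal samples. *Adh1* had 0, 0, 13 and 1 reads in 2D and 32 to 120 in 3D, and its regional difference was 2.90 (standard error 0.41). *Pde1b*, a calmodulin-dependent phosphodiesterase, differed by 4.24 and 2.80.

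**Figure D3:**
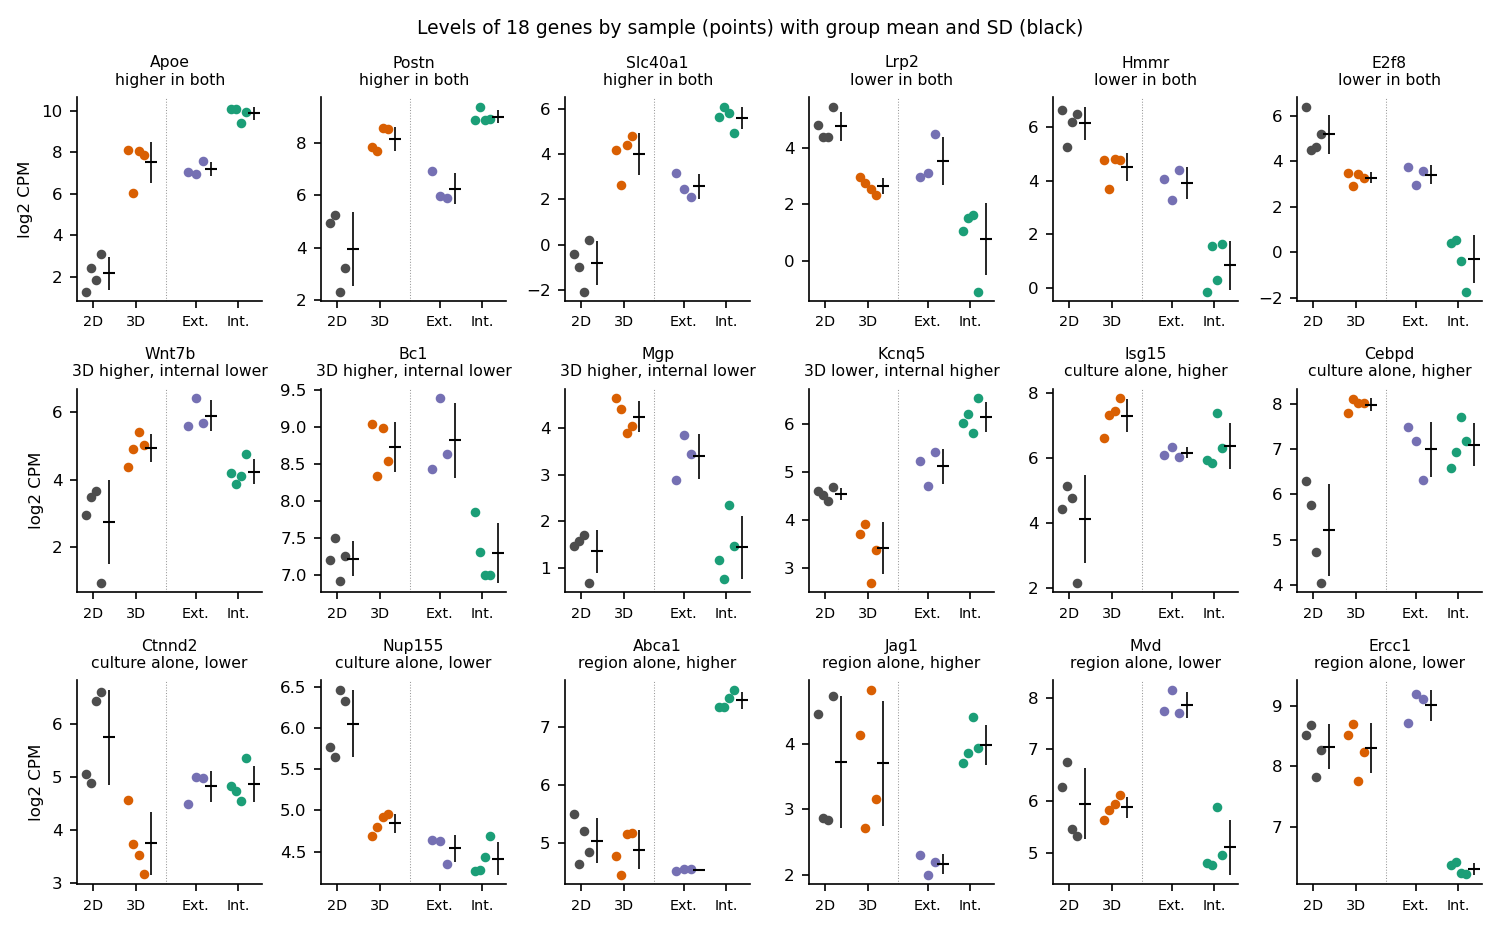
Levels (vertical, log2 CPM) of 18 named genes in each sample, with the group mean and SD in black, and the culture table left and the region table right of the dotted line. Levels are to be compared within a table only. *Apoe* is at 6.04 or more in all 3D samples and at 3.10 or less in all 2D samples, and *Mvd* and *Ercc1* overlap between 2D and 3D but not between the regions.

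A list of 18 genes of secreted chaperones, lipoproteins and complement, with the cholesterol exporter *Abca1* among them, had 9 members in a class, 7 of them higher in both. The measured genes of the list had a median difference of 2.77 between the cultures and 1.98 between the regions, with 5 and 9 of 12 genes called higher, against 2.92% and 3.27% of all genes. Between the regions 1, *Masp1*, was called lower, against 4.35% of all genes. Without the variance trend, 5 were called higher and 1 lower between the regions. *Clu*, an extracellular chaperone, had 18, 17, 18 and 40 reads in 2D and 243, 411, 274 and 312 in 3D. It had 5.64, 5.33 and 5.27 log2 CPM in the external and 7.05, 7.83, 7.496 and 7.73 in the internal samples. *Serpina3n*, a protease inhibitor, had at most 2 reads in a 2D sample and 48 to 91 in 3D, and its regional difference was 2.45 (standard error 0.25). The proteases of the first complement component were also higher in both, *C1ra* with 2.12 and 1.15, *C1s1* with 3.43 and 2.18 and *C1rl* with 1.64 and 1.4997. None of these was called between the cultures, where their standard errors were 0.46, 0.90 and 0.50. *Apod*, a lipocalin, differed by 5.95 and 1.84.

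Of 34 lysosomal genes, 5 were placed, all higher in both. *Ctsl*, cathepsin L, had 9.59, 8.77, 9.13 and 8.67 log2 CPM in 2D and 10.2, 10.4, 11.04 and 11.06 in 3D, and between 8.64 and 9.49 in the external and between 10.1 and 10.5 in the internal samples. *Scarb2*, a lysosomal membrane protein, differed by 1.61 (standard error 0.18) and 1.36 (standard error 0.17). *Hexa*, a lysosomal hydrolase, differed by 1.15 between the cultures and by 1.07 between the regions, and *Ctsf*, a cathepsin, by 2.75 and 1.36. The list as a whole had a median of 0.74 between the cultures and 0.32 between the regions, with 7 of 31 and 6 of 30 genes called higher, against 2.92% and 3.27% of all genes. These calls fell to 3 between the cultures without the 3D replicate 3, and to 3 between the regions without the external replicate 3. Without the variance trend, 1 was called between the regions.

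Of the lens fiber list, *Prox1* and *Maf* were higher in both. The list had a median of 0.27 between the cultures, with 3 of 6 genes above and 3 below 0 and none called, and 4 of 8 genes called higher in the internal region, against 3.27% of all genes. Without the variance trend these were 2. *Prox1* had 330, 327, 1 and 355 reads in 2D, whereas 3D samples held between 562 and 745. The size of its culture difference of 2.84 (standard error 1.28) therefore rested in large part on the 2D replicate 3. Its direction did not, since the highest 2D value was 5.49 and the lowest 3D value 6.13 log2 CPM. Between the regions the difference was 1.45 (standard error 0.14), with 6.61, 6.80 and 6.57 log2 CPM in the external and 8.07, 8.05, 8.10 and 8.23 in the internal samples. *Maf* differed by 1.11 (standard error 0.27) and 1.25 (standard error 0.20), and *Aqp1*, the water channel of the lens epithelium, by 2.34 (standard error 0.20) and 1.28 (standard error 0.14). The collagen genes *Col3a1* and *Col4a4* were higher in both, with 2.49 and 1.59 and with 2.26 and 1.47. Of the interstitial matrix list, *Col3a1* and *Postn* were higher in both among 22 genes that reached the minimum mean. In that list 5 of 25 genes were called higher in 3D, and 4 of 24 higher and 3 lower in the internal region, among the latter *Col1a1* with -1.56. Of all genes, 2.92% were called higher in 3D, and 3.27% higher and 4.35% lower in the internal region. Without the 3D replicate 3, 2 were called in 3D, and without the external replicate 1, 1 was called lower in the internal region. Without the variance trend, these were also 2 and 1. Between the cultures, 8 of 10 fibroblast markers were above 0 (median 0.92) and 4 were called higher in 3D, against 2.92% of all genes. This count fell to 0 without the 2D replicate 4 and to 1 without the variance trend. Between the regions their median was -0.01, and their part in the levels of the matrix genes was not tested. The mitochondrially encoded *COX1* was higher in both, with 1.40 and 1.19, while 4 of the 7 mitochondrially encoded genes measured were called higher in the internal region and 1, *ND6*, lower, against 3.27% and 4.35% of all genes. Without the external replicate 2, 1 was called higher and 0 lower, and without the variance trend 0 were called.

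The 28 genes that were higher in 3D but lower in the internal region included *H2-Q7*, *Sema7a*, *Col5a3*, *Mgp*, *Wnt7b*, *Bc1* and *Adm*. The median difference was 1.61 between the cultures and -1.49 between the regions, and the groups were apart in both tables for 14 of the 28, against 1068 of the 8841 genes in any direction. The rule selects such genes. With limma, 8 were called between the cultures, 17 between the regions, 6 in both tables and 9 in neither, where 431, 757 and 199 of the 8841 genes were called between the cultures, between the regions and in both. Of the named genes *Col5a3* and *Mgp* lacked a call between the regions and *Wnt7b* and *Adm* between the cultures. Without the 2D replicate 3, 18 genes met the rule. *Wnt7b*, a Wnt ligand (ENSMUSG00000022382, chr15:85535437-85582473), had 2.94, 3.48, 3.65 and 0.93 log2 CPM in 2D and 4.39, 4.92, 5.41 and 5.01 in 3D. In the regions it had 5.59, 6.41 and 5.67 in the external and 4.19, 3.87, 4.11 and 4.76 in the internal samples, so that the difference of 2.18 (standard error 0.52) between the cultures stood beside -1.66 (standard error 0.27) between the regions. *Bc1*, a short noncoding RNA, had the smallest errors among the leading genes of this class. It had 1407, 1327, 1040 and 1476 reads in 2D and 4119, 2627, 3878 and 3011 in 3D, a difference of 1.4993 (standard error 0.18). Between the regions, the values were 8.44, 9.38 and 8.63 log2 CPM in the external and 7.86, 7.31, 7.01 and 7.01 in the internal samples, a difference of -1.52 (standard error 0.21).

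*Mgp*, an inhibitor of calcification in the matrix, had 24, 20, 26 and 13 reads in 2D and 195, 171, 114 and 131 in 3D, and 43, 65 and 40 in the external and 13, 12, 21 and 30 in the internal samples. *Col5a3*, a chain of type V collagen, differed by 2.81 (standard error 0.58) and -2.03 (standard error 0.56), and *Sema7a*, a semaphorin anchored in the membrane, by 2.42 (standard error 0.42) and -2.53 (standard error 0.55). *Adm*, which encodes the hypoxia-induced peptide adrenomedullin, had 7.15, 7.02, 5.06 and 5.51 log2 CPM in 2D and 7.22, 8.02, 7.33 and 7.38 in 3D. It had 7.06, 8.02 and 7.56 in the external and 5.83, 5.60, 6.68 and 5.20 in the internal samples. *Adm* was the only gene of the glycolysis and hypoxia list in any class. That list had a median of 0.16 between the cultures and -0.35 between the regions. Between the regions 5 of its 34 genes were called lower, *Adm* with the glycolytic *Gapdh*, *Eno1*, *Pkm* and *Ldha*, and 2 higher, *Vegfa* with 1.19 and *Ddit4* with 1.41, against 4.35% and 3.27% of all genes. Without the external replicate 3, these were 2 and 1, and without the variance trend 1 and 0.

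*H2-Q7*, of the nonclassical MHC class I genes, had 26, 29, 2 and 6 reads in 2D and 75, 155, 103 and 140 in 3D, and 81, 105 and 84 in the external and 4, 31, 55 and 22 in the internal samples. Because only uniquely mapped reads were counted, its level relative to its close paralogs is uncertain. *Psmb8*, a subunit of the immunoproteasome, had 101, 99, 0 and 20 reads in 2D and 273 to 407 in 3D, and differed by -1.17 (standard error 0.38) between the regions.

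Of the 5 genes lower in 3D and higher in the internal region, *Pnpt1* and *Kcnq5* had groups apart in both tables, against 1068 of the 8841 genes in any direction. The rule selects such genes. With limma, 1 of the 5 was called between the cultures, 1 between the regions, 0 in both tables and 3 in neither. Of the 8841 genes, 431, 757 and 199 were called between the cultures, between the regions and in both. *Pnpt1* was called in neither table and *Kcnq5* only between the regions. *Kcnq5* (ENSMUSG00000028033, chr1:21398403-21961942) encodes a potassium channel. It had 4.60, 4.53, 4.40 and 4.69 log2 CPM in 2D and 3.71, 3.92, 2.69 and 3.38 in 3D, and 5.24, 4.71 and 5.41 in the external and 6.03, 6.21, 5.81 and 6.54 in the internal samples. The differences were -1.13 (standard error 0.26) and 1.02 (standard error 0.22). *Pnpt1*, a mitochondrial RNA-degrading enzyme, differed by -1.06 and 1.26, with 8 reads in the external replicate 3. Of the further members, *Plxna4* and *Ppm1e*, named after their values were seen, had culture differences of -1.72 and -1.85 and regional differences of 1.22 and 1.01. This class held 10 genes without the 2D replicate 2, 2 without the external replicate 2, and 3 without the internal replicate 1 or 4.

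Of the 89 genes that were higher in 3D with little regional difference, 6 were on a list of genes induced by interferon. Of its 32 genes, 24 reached the minimum mean. Those higher in 3D alone were *Isg15*, *Bst2*, *Ifi27*, *Ifi35*, *Lgals3bp* and *Ifitm3*. A further 4, among them *Ifit2*, *Rsad2* and *Mx2*, were higher in both, and *Psmb8* was in the class described above. The remaining genes were in no class. The list had a median difference of 2.78 between the cultures and 0.47 between the regions. With limma, 21 of 30 genes were called higher in 3D and 2 of 29 higher in the internal region, against 2.92% and 3.27% of all genes. Between the cultures, 7 genes were called without the 3D replicate 3 and 26 without the 2D replicate 2. Between the regions, 1 was called without the external replicate 2 and 3 without the external replicate 1. Without the variance trend, 13 were called between the cultures and 0 between the regions.

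*Isg15*, a ubiquitin-like modifier (ENSMUSG00000035692, chr4:156199424-156200818), had 4.44, 5.15, 4.75 and 2.14 log2 CPM in 2D and 6.62, 7.33, 7.44 and 7.84 in 3D, a difference of 3.19 (standard error 0.55). Its regional values were 6.09, 6.35 and 6.03 in the external and 5.93, 5.83, 7.38 and 6.32 in the internal samples, and the difference of 0.20 had a 95% interval from -0.34 to 0.74. Interferon regulatory factors bind repeats of the letters GAAANNGAA. They were found on either strand in 3 of 5 promoters of the interferon genes of this class, in 8 of 67 promoters of the whole class (11.9%) and in 8.56% of all promoters. In the promoter of *Isg15*, shown with these letters in capitals, 3 overlapping matches began at -78, -72 and -66.
*Isg15*, chr4:156200769-156201068, minus strand: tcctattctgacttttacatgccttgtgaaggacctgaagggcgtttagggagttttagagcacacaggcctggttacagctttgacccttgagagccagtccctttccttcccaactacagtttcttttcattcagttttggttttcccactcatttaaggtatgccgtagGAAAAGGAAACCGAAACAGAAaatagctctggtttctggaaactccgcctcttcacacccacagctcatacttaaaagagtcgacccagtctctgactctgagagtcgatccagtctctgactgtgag

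*Ifitm3*, which restricts virus entry, went from 8.87 ± 0.63 to 11.003 ± 0.30 log2 CPM (SD, n = 4 each) between the cultures and had 10.8 and 11.01 log2 CPM on average in the external and internal region. With limma, 30 of the 89 genes of the class were called higher in 3D, against 2.92% of all genes, and the rule favours such calls. The other 59 were called in neither table. The leading genes of the class were *Zbp1*, *Isg15*, *Lrrc15*, *Cebpd*, *Osmr* and *Plekha4*, of which *Lrrc15* was not called. *Zbp1*, a sensor of Z-form nucleic acid, had 8, 13, 1 and 0 reads in 2D and 91, 140, 126 and 193 in 3D. In the regions it had 96, 50 and 50 reads in the external and 40, 71, 109 and 264 in the internal samples, and the 95% interval of its difference of -0.04 reached from -0.94 to 0.86. *Cebpd*, a transcription factor of the acute phase, had 6.31, 5.77, 4.72 and 4.03 log2 CPM in 2D and 7.79, 8.13, 8.02 and 8.03 in 3D. It had 7.504, 7.19 and 6.32 in the external and 6.58, 6.95, 7.71 and 7.18 in the internal samples. *Osmr*, the receptor of oncostatin M, had 63, 46, 22 and 11 reads in 2D against 167 to 213 in 3D, and differed by 0.08 (standard error 0.26) between the regions. *Lrrc15* and *Plekha4* differed by 2.80 and 2.64 between the cultures and by -0.17 and -0.01 between the regions.

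Other list members of this class were *Bgn*, the proteoglycan biglycan, with 1.41 and 0.24, *Pdpn*, podoplanin, with 1.91 and -0.01, and *Ddit3*, a transcription factor of the stress response, with 1.29 and 0.15. *Pdpn* had 2183, 2190, 267 and 769 reads in 2D. A difference within 0.25 of 0 does not show equal levels. For 82 of the 89 genes the 95% interval of the regional difference lay within 1 of 0, and for 21 of them within 0.5. Of the 8841 genes, these were 5063 and 767. By asking for a regional difference near 0, the rule itself selects such genes.

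The 19 genes lower in 3D alone included *Ctnnd2*, *Etfdh*, *Stxbp6*, *Lingo2*, *Syncrip* and *Nup155*. *Ctnnd2*, which encodes a catenin of cell junctions, had 5.05, 4.89, 6.44 and 6.603 log2 CPM in 2D and 4.58, 3.74, 3.53 and 3.18 in 3D, a difference of -1.99 (standard error 0.43). Between the regions, the values were 4.48, 5.003 and 4.98 in the external and 4.83, 4.74, 4.55 and 5.35 in the internal samples. *Nup155*, a subunit of the nuclear pore, had the smallest error of the 6, with 5.77, 5.65, 6.46 and 6.33 log2 CPM in 2D and 4.69 to 4.95 in 3D, and its regional difference was -0.12 (standard error 0.27). *Etfdh*, of the mitochondrial electron transfer chain, differed by -1.56, *Stxbp6* by -1.37, *Lingo2* by -1.26 and *Syncrip*, an RNA-binding protein, by -1.24. With limma, 5 of the 19 genes were called lower in 3D, against 1.51% of all genes, and the rule favours such calls. Of the 6 named genes, only *Stxbp6* and *Nup155* were called. The regional interval lay within 1 of 0 for 15 of the 19 genes, against 5063 of the 8841 genes, and the rule selects such genes. Without the 2D replicate 2, 43 genes met the rule.

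The 81 genes higher in the internal region alone were led by *Abca1*, *Mctp1*, *Jag1*, *Negr1*, *Pltp* and *Rb1*. *Abca1* (ENSMUSG00000015243, chr4:53030787-53159895), which exports cholesterol from the cell, had 4.53, 4.55 and 4.56 log2 CPM in the external and 7.34, 7.35, 7.49 and 7.64 in the internal samples. That is a difference of 2.91 (standard error 0.18), or 7.52-fold. In the cultures it had 5.50, 4.63, 5.21 and 4.84 in 2D and 4.78, 4.46, 5.16 and 5.17 in 3D. *Pltp*, which transfers phospholipids between lipoproteins, had 94, 56 and 76 reads in the external and 278, 535, 303 and 640 in the internal samples, and differed by 0.01 (standard error 0.40) between the cultures. *Jag1* had 2.30, 2.00 and 2.20 log2 CPM in the external and 3.71, 3.86, 4.42 and 3.94 in the internal samples. Its culture values of 4.46, 2.88, 2.84 and 4.74 in 2D and 4.14, 2.71, 4.84 and 3.16 in 3D were so spread that the 95% interval of the difference of -0.02 reached from -1.23 to 1.20.

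*Rb1*, the retinoblastoma protein that restrains the cell cycle, had 94, 44 and 14 reads in the external and 108, 261, 124 and 465 in the internal samples, a difference of 1.67 (standard error 0.40). It had 4.43, 4.01, 4.74 and 4.70 log2 CPM in 2D and 4.81, 4.29, 4.85 and 4.74 in 3D. *Mctp1* and *Negr1* differed by 2.50 and 1.81 between the regions. *Col4a2*, a chain of the basement membrane collagen IV, differed by 1.24 (standard error 0.14) between the regions and 0.13 (standard error 0.19) between the cultures. The groups were apart in the regions for 64 of the 81 genes, against 13.5% of all genes wholly higher in the internal region, and the rule selects such genes. The culture interval lay within 1 of 0 for 71, against 6100 of the 8841 genes, and again the rule selects such genes. Without the external replicate 1, 138 genes met the rule, and with library sizes not scaled, which shifts the regional median of all genes from 0.04 to 0.15, 123 genes did.

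The 81 genes lower in the internal region alone were led by *Upp1*, *Ereg*, *Mvd*, *Ercc1*, *Rny1* and *Masp1*. *Ercc1* (ENSMUSG00000003549, chr7:19344778-19356524), a subunit of the endonuclease of nucleotide excision repair, had 2559, 2705 and 2074 reads in the external and 545, 738, 326 and 895 in the internal samples. Its difference of -2.71 log2 CPM had a standard error of 0.15. In the cultures it had 8.52, 8.69, 7.82 and 8.27 log2 CPM in 2D and 8.51, 8.70, 7.75 and 8.23 in 3D, with a like order of the replicates. *Ereg*, a ligand of the epidermal growth factor receptor, had 6.62, 7.11 and 6.77 in the external and 3.71, 3.81, 4.89 and 3.72 in the internal samples, and between 5.95 and 6.70 in all culture samples. *Upp1*, which cleaves uridine, had 153, 127 and 57 reads in the external and 17, 19, 25 and 13 in the internal samples. *Masp1*, a protease of the lectin pathway of complement, differed by -2.56 (standard error 0.33), while its relatives *C1ra* and *C1s1* were higher in the internal region. *Rny1*, a short noncoding Y RNA, differed by -2.59 (standard error 0.35).

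Genes of cholesterol synthesis were placed in this class. *Mvd*, an enzyme of the mevalonate pathway, had 7.74, 8.15 and 7.70 log2 CPM in the external and 4.802, 4.77, 5.88 and 4.96 in the internal samples, a difference of -2.76 (standard error 0.23). *Insig1*, which retains the sterol sensor in the endoplasmic reticulum, differed by -2.55 (standard error 0.53), *Hmgcs1* by -1.89 (standard error 0.19) and *Fdft1* by -1.24 (standard error 0.21). Their culture differences were -0.07, -0.01, -0.21 and 0.19. The list of 25 genes had a median of -1.87 between the regions, with 16 of 23 genes called lower, and of -0.54 between the cultures, with 1 of 24 called lower, and 0 without the 3D replicate 1. Of all genes, 4.35% and 1.51% were called lower in these comparisons. Hence most of its genes were in no class, because their culture differences were neither beyond 1 nor near 0. The sterol regulatory element, searched as TCACNCCAC on both strands, was found in 1 of the 3 promoters read for these 4 genes and in 1.24% of all promoters. That promoter belongs to *Hmgcs1*, where it began at -137 and is shown in capitals.
*Hmgcs1*, chr13:119690101-119690400, plus strand: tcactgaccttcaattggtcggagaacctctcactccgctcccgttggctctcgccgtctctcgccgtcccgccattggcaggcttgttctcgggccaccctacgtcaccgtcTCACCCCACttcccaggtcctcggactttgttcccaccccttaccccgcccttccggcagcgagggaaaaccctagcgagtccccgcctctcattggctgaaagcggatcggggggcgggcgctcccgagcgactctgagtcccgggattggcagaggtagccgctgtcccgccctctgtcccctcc

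*Asns* and *Slc7a5*, an asparagine synthetase and an amino acid transporter that respond to amino acid shortage, differed by -1.58 and -1.03 between the regions and by -0.18 and -0.13 between the cultures. Genes of cytosolic ribosomal proteins, which were counted after their values had been seen, gave 9 members of this class and of no other. Of 80 such genes, 78 had lower internal than external means (median -0.82) and 76 had higher 3D than 2D means (median 0.35). With limma, 18 of them were called lower in the internal region, against 4.35% of all genes, and 31 without the external replicate 1 and 7 without the variance trend. Across the scalings and left-out samples tried, the medians lay between -0.91 and -0.71 and between 0.29 and 0.40. Ribosomal protein genes have many processed pseudogenes with nearly the same sequence, so that the split of their reads is uncertain. Of the 81 genes of this class, 71 were protein coding (87.7%), against 98.5% of the 8841 genes.

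**Figure D4:**
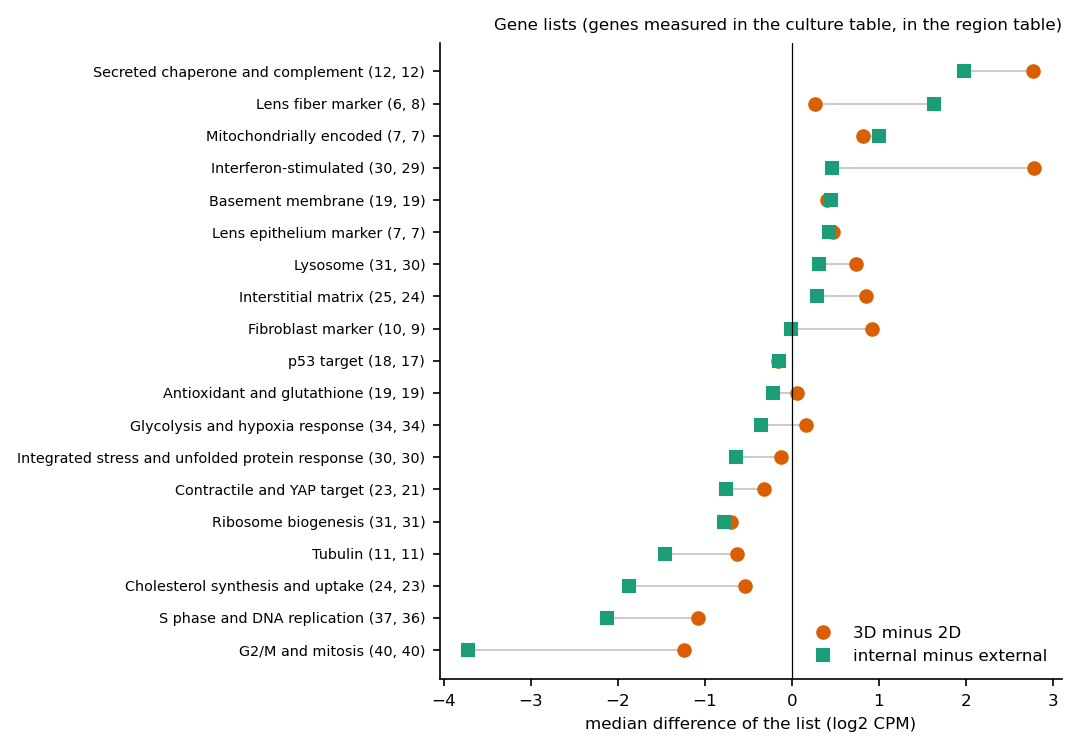
Median difference (horizontal, log2 CPM) of 19 gene lists between 3D and 2D (circles) and between internal and external region (squares), with the genes measured in each table in parentheses. The G2/M list has -1.24 and -3.72, the cholesterol list -0.54 and -1.87, and the interferon list 2.78 and 0.47.

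The classes differed in the length of their genes, which the rule did not use. The median span in the genome, from GENCODE vM21 on GRCm38, was 26.9 kb over the 8841 genes. It was 77.3 kb for the genes higher in the internal region alone and 8.96 kb for those lower there alone, with quartiles of 25.2 and 177 kb and of 3.41 and 18.9 kb. For the genes higher in 3D alone it was 14.0 kb and for those lower in 3D alone 42.4 kb. It was 24.1 kb for the genes higher and 21.2 kb for the genes lower in both, 10.7 kb for the 28 and 219 kb for the 5 genes with opposite signs. The longest annotated transcript had a median of 3277 nt over the 8841 genes, 4480 and 2016 nt for the genes higher and lower in the internal region alone, and 2220 and 4216 nt for those higher and lower in 3D alone. Reads were counted at the 3′ end and not divided by length. The part of length or RNA integrity in these differences was not tested.

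**Figure D5:**
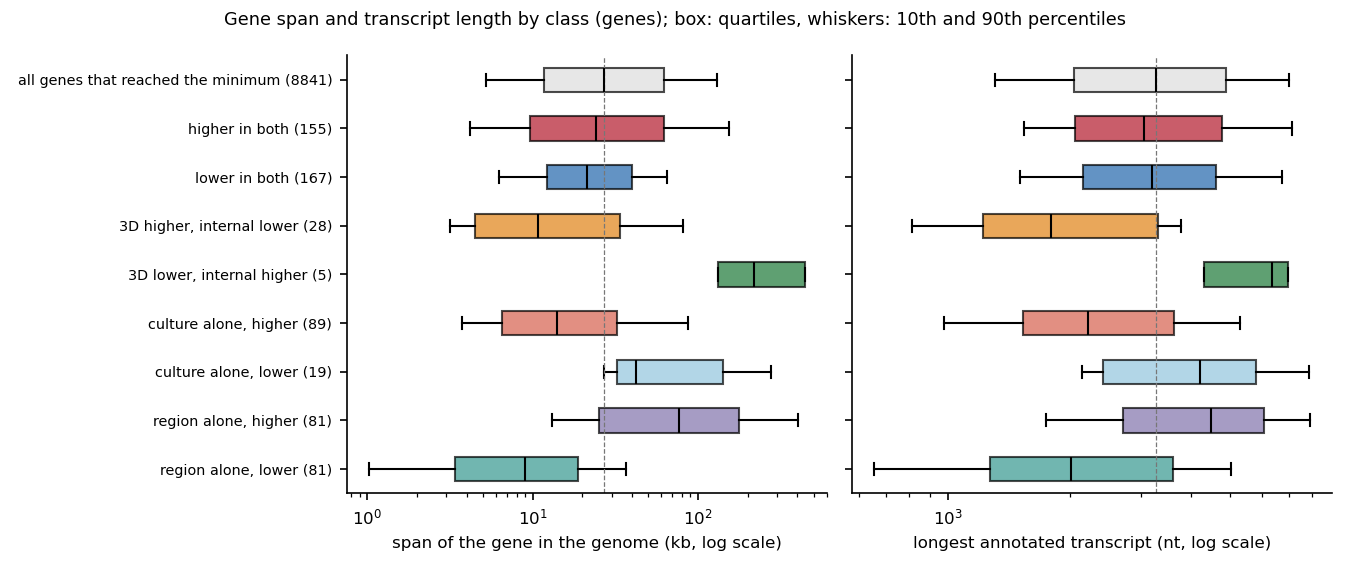
Span of the gene (left, kb, log axis) and longest annotated transcript (right, nt, log axis) by class, with boxes from the first to the third quartile, whiskers from the 10th to the 90th percentile, and the median of the 8841 genes dashed. Genes higher in the internal region alone have a median span of 77.3 kb and those lower there alone one of 8.96 kb.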

How the data were processed

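Gene expression was measured by QuantSeq 3′ RNA sequencing in 4 2D, 4 3D, 4 internal and 3 external samples. Per the submitters' processing notes and the study's methods, reads were aligned to GRCm38.p6 with STAR 2.7.8a and uniquely mapped sense reads were counted with featureCounts 1.6.0. The deposited log2 values are log2 CPM that the authors computed with edgeR, separately for each table, after removing genes of low CPM, so that levels were not compared across tables. A prior count of 2 reads on average is included, which understates the change of low genes. The authors' group means, fold changes and p-values were not used. Whole reads were recovered from 100% of the values within a tolerance of 0.1 reads, and are printed as reads.

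Genes were joined by symbol and the differences were taken between group means. The members and gene lists were chosen with earlier results of these data known. Calls, standard errors and 95% intervals came from limma 3.58.1 (R 4.3.3) with a variance trend, on the log2 values of the samples of each table, with Benjamini-Hochberg adjustment over all its genes, an adjusted p under 0.01 and a difference beyond 1. The fit was tested on simulated data. Named genes were those with groups apart and the largest smaller absolute difference (8 per class beyond 1 in both) or the largest difference (6 per other class), besides members of the lists and genes at the thresholds. Some genes that the rule names are not reported here. Gene positions are from GENCODE on GRCm38 and promoters from RefSeq on GRCm38.p6. Python 3.11.15, numpy 2.4.6, pandas 2.3.3 and matplotlib 3.10.9 were used. Alternatives were other minimum means, windows, prior counts, scalings and summaries, a replicate block, a fit without the trend, leaving out each sample and leaving out both culture samples numbered 2.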

Additional observations from a re-analysis of the deposited data

Results flagged for a closer look

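In 150 groups of 4 samples from the named genes, 10 samples stood apart from the rest of their group by more than chance gives in about 1 of 20 groups. At that rate chance would flag nearly as many of the 150 groups, so that the 10 samples are listed as a description only. In 2 of the 10, standing apart rested on few reads: *Rspo3* had 0.11 log2 CPM in the 2D replicate 1, with 8 reads against 0 in the others, and *Il18rap* had -0.18 in the internal replicate 2, with 5 reads against 0. In the internal replicate 3, *Adh1* had 5.02 log2 CPM against 6.17 to 6.23 in the others, and *Ereg* had 4.89 against 3.71 to 3.81. *Postn* had 9.37 in the internal replicate 2, against 8.84 to 8.90. In the 3D replicate 2, *Apoe* had 6.04 against 7.88 to 8.10 in the others, and *Hmmr* had 3.71 against 4.76 to 4.82. In the 2D samples, *Sgo2a* had 5.45 in replicate 1 against 4.50 to 4.64, *Syncrip* had 5.36 in replicate 4 against 4.71 to 4.75, and *Mctp1* had 2.60 in replicate 4 against 3.53 to 3.70.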

How the results depend on the processing

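With a minimum mean of 5 log2 CPM, 69 genes were higher in both, 55 lower in both, 10 higher in 3D and lower in the internal region and 0 the reverse, 46 and 2 were higher and lower in 3D alone, and 16 and 52 higher and lower in the internal region alone. With no minimum, these were 288, 239, 69, 24, 148, 38, 176 and 127. With a window of 0.5 around 0, 175 and 32 genes were higher and lower in 3D alone, and 152 and 192 in the internal region alone. With an adjusted p under 0.05 also required in both tables, 11 and 2 genes had opposite signs. With the differences centred on their medians 3 genes were lower in 3D and higher in the internal region, and with library sizes not scaled 123 genes were higher in the internal region alone. Without both culture samples numbered 2, 38 genes were lower in 3D alone and 276 were called lower in 3D.

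Leaving out 1 sample gave 140 to 189 genes higher in both, 134 to 190 lower in both, 18 to 33 and 2 to 10 with opposite signs, 67 to 117 and 14 to 43 higher and lower in 3D alone, and 71 to 138 and 72 to 103 higher and lower in the internal region alone. The genes called by limma ranged from 112 to 483 higher and 49 to 287 lower in 3D, and from 281 to 402 higher and 352 to 489 lower in the internal region. An adjusted p under 0.05 gave 644 and 334 calls between the cultures, and a fit without the variance trend 117 and 207 between the regions.

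Samples with the same number correlated in their deviations from the group means by 0.31, 0.62, 0.07 and -0.02 between the cultures. Between the regions, these correlations were -0.13, -0.06 and -0.09. Pairs of unlike number lay from -0.46 to 0.30 between the cultures and from -0.08 to 0.12 between the regions. The labels do not say what the numbers mark, so that they were not taken to pair samples. Why the culture samples numbered 2 deviated together was not tested. With a replicate block, 3 genes were lower in 3D and higher in the internal region, and 389 and 213 genes were called between the cultures and 256 and 399 between the regions. With a prior count of 0.5 reads, the differences of *Rspo3* and *Adh1* between the cultures and of *Il18rap* between the regions grew by more than the spread between samples. No difference beyond 1 of a named gene changed sign under the alternatives run. The rule named genes only where such groups did not overlap, so that leaving out samples could not change these signs. That result therefore lends no support, and differences near 0 were not followed. The few reads of the external samples limit what can be seen of genes near 3 reads.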
